A study of Mus musculus with 36 samples.

Results

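The libraries described here are the adult tail DNA samples of the paternal and the maternal *Wnt1DR* pedigrees, which are 10 of the 36 libraries of the series and 10 of its 20 tails. They were chosen by their sample labels. The paternal lineage (P) holds 6 animals of genotype +/DR, from the pedigree kept by passage through fathers: 4 animals of F1 (31092, 31150, 31153 and 30999), 1 of F5 (32415) and 1 of F6 (32802). The maternal lineage (M) holds 4 animals of genotype DR/+, from the pedigree kept by passage through mothers: 2 of F2 (31071 and 31075) and 2 of F6 (32803 and 32804). All 10 animals carried 1 targeted *Wnt1* chromosome and 1 wild-type *Wnt1* chromosome, both *Rasgrf1* copies at their normal place, and a background bred towards C57BL/6. The targeted allele was made in v6.5 ES cells, with its neomycin cassette removed before the cells were injected. The number of ES cell clones, the exact age and the sex of each animal, and the parent that passed the allele on in the generations before the F2 animals of M, are not given in the sources used here. The label of animal 32415 places it in the paternal lineage, while a supplementary list of the study places it in the alternating one, so results that rest on it are also given without it.

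An imprinting control region (ICR) is a stretch of DNA that carries methylation of cytosine (5mC) on the chromosome inherited from one parent and none on the chromosome from the other. The marks are set in the germline, are copied by the maintenance methyltransferase at each cell division of the offspring, and are erased and set anew according to sex in its germ cells. At the *Rasgrf1* ICR the paternal copy is the methylated one, and the element consists of a differentially methylated domain (DMD) next to a block of tandem repeats, with a noncoding RNA made across the DMD in the fetal testis. The *Wnt1DR* allele (DR) carries the DMD and the repeats downstream of *Wnt1*, a developmental signalling gene that is not imprinted. The pedigrees ask whether the transplanted element is methylated in offspring that received it from fathers, and free of methylation in offspring that received it from mothers. In sperm, the study reports only partial methylation of this allele, so a methylated tail does not show that the mark was carried over from sperm.

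Sodium bisulfite turns unmethylated cytosine into uracil, which is read as T, and leaves 5mC as C. An allele-specific PCR then read a part of the transplanted DMD. Its reference sequence of 250 bases matches the native DMD once in the mouse genome, at chr9:89774437-89774686 on the plus strand of NCBIM37. No annotated gene overlaps these bases, and they end 29.9 kb before the start of *Rasgrf1* (chromosome 9, 89804613 to 89921814, plus strand). The transgenic copy itself lies beside *Wnt1* on chromosome 15 (98620288 to 98624268, plus strand), and positions here are those of the native copy. The sequence is printed because each result below concerns CpGs in it. Capitals mark its 21 CpGs. The first of them lies in the forward primer and was left out, and the other 20 are numbered from 1 (amplicon base 62, position 89774498) to 20 (base 229, position 89774665).
DMD reference, unconverted: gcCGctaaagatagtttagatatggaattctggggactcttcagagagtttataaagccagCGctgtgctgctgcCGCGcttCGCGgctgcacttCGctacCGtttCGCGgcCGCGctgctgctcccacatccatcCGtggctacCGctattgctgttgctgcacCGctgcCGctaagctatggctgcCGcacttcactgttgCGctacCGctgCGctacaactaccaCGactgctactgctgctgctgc

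The 2 states between which the lineages differed look as follows after conversion. The stretch from amplicon base 56 to base 235 is shown (chr9:89774492-89774671 in the native copy), with each CpG in capitals as CG where methylated and as TG where not. The first sequence was the commonest read in P and the second the commonest read in M. The third and the fourth are the commonest departures from those states, with CpG 12 alone unmethylated in P and CpG 1 alone methylated in M.
All 20 CpGs methylated: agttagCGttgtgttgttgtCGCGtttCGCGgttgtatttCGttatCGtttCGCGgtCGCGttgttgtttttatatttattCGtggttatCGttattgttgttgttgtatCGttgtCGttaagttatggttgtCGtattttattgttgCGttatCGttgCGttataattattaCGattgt
No CpG methylated: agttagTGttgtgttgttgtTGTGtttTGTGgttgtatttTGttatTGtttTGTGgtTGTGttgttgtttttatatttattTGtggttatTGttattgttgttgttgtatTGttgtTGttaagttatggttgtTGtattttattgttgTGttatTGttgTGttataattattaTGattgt
CpG 12 alone unmethylated: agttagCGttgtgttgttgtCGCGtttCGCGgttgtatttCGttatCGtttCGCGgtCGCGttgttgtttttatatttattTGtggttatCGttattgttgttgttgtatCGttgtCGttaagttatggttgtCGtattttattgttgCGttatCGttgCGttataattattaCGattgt
CpG 1 alone methylated: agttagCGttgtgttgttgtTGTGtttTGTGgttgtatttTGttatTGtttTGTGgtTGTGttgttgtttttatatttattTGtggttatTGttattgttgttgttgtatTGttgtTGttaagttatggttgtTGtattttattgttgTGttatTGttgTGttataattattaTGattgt

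Reads were used if the authors' software had not excluded them and if their identity with the reference was at least 98 %. They numbered 2608 to 7508 per library in P and 7603 to 13444 in M, with 2593 to 13444 calls at each CpG of a library. Methylation levels are given as the share of methylated calls, in percent, over the 20 CpGs together. The libraries came from 2 sequencing runs. All 4 M libraries and P animals 31092 and 32802 were sequenced in run 1, and the other 4 P libraries in run 2. The files of these 4 list 38653 reads each, of which 6.75 to 8.75 % were used, against 42.7 to 62.4 % in the run 1 libraries. Since M was sequenced in run 1 only, its values cannot be told apart from that run, and the comparison with the 2 P animals of run 1, in which no exact p can be below 0.133, is given beside the tests between lineages.

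The *Wnt1DR* DMD was almost fully methylated in P tails and almost unmethylated in M tails. In F1 of P, the level was 94.1 % in 31092, 93.7 % in 31150, 94.6 % in 31153 and 95.7 % in 30999. It was 93.7 % in the F5 animal 32415 and 90.8 % in the F6 animal 32802. In M, it was 2.12 % in 31071 and 1.81 % in 31075 of F2, and 2.63 % in 32803 and 2.47 % in 32804 of F6. Every P animal lay far above every M animal. The 95 % Wilson interval of a library was narrow, from 90.7 to 91.0 % for 32802 and from 1.75 to 1.87 % for 31075, but it covers counting error only, as PCR reads without molecular identifiers are not independent molecules.

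**Figure D1:**
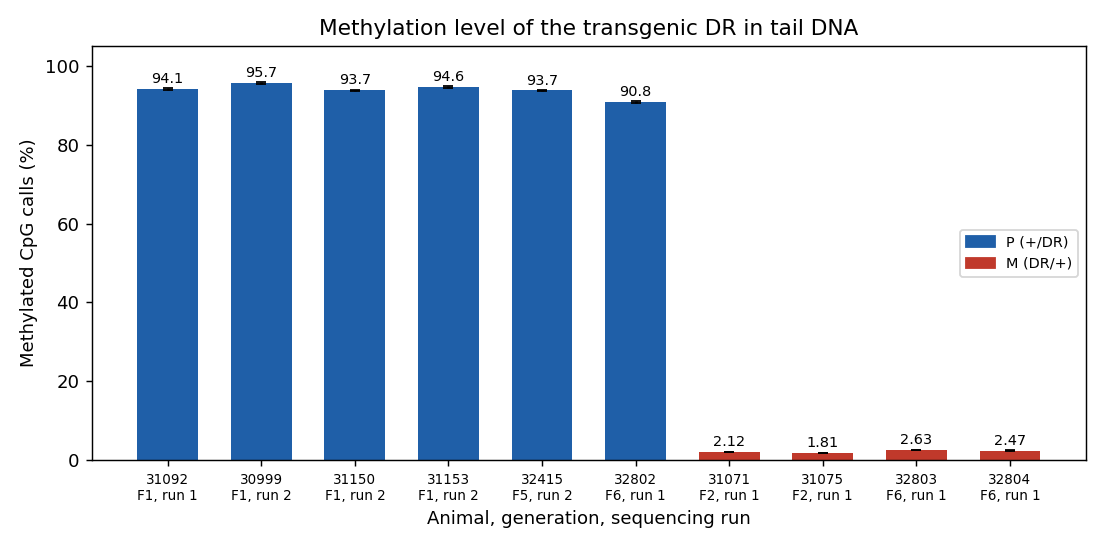
Share of CpG calls that were methylated, in percent over 20 CpGs (vertical axis), in the tail DNA of each animal, with its generation and sequencing run (horizontal axis), P in blue and M in red. Bars are single libraries and error bars are 95 % Wilson intervals; the P bars stand between 90.8 and 95.7 % and the M bars between 1.81 and 2.63 %.

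The mean level was 93.8 % ± 1.62 (SD, n = 6) in P and 2.26 % ± 0.366 (SD, n = 4) in M. The difference was 91.5 percentage points, with a two-sided exact permutation p = 0.00952, the smallest that 6 against 4 animals can give. Within run 1 it was 90.2 percentage points between 2 P and 4 M animals, again with no overlap, where the smallest exact p is 0.133. With every listed read, including those excluded by the software, the difference was estimated at 50.4 percentage points with the same exact p. The run 2 libraries of P then stood at 29.1 to 40.2 %, while 31092 and 32802 stood at 92.9 and 90.6 %. These levels are estimates and not counts of calls. A read without a methylated CpG lists no number of sites, so it was given the mean of its library's other reads. All of its sites then counted as unmethylated, and the primer CpG was not dropped.

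The same was true of each CpG. All 20 CpGs, 100 % of those tested, were higher in P (exact permutation test, Benjamini-Hochberg adjusted p = 0.00952 for each). The smallest difference was 87.5 percentage points at CpG 12 (position 89774573) and the largest was 94.2 percentage points at CpG 15 (position 89774608). Within run 1, where no CpG can pass the threshold, the difference was 87.1 percentage points at CpG 12 and 94.1 at CpG 15.

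Within P, CpG 12 was the least methylated on average. Its level was 85.4 % in 31092, 89.1 % in 31150, 88.7 % in 31153, 87.9 % in 30999, 89.8 % in 32415 and 91.0 % in 32802, with a mean of 88.6 % ± 1.89 (SD, n = 6). Each of the 4 F1 animals and the F5 animal had CpG 12 as its lowest or second lowest site, while in the F6 animal 9 other sites lay below it. CpG 12 is the first site after the dense run of CpGs 1 to 11. The most methylated site in P was CpG 8 (position 89774543), at 96.1 % ± 1.38 (SD, n = 6), with a range from 94.5 to 97.9 %.

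The lowest site differed between P animals. It was CpG 14 in 31153, at 83.0 % (95 % Wilson interval 81.6 to 84.4), although the same site stood at 97.3 % in 30999. It was CpG 17 in 31150 at 88.4 %, CpG 20 in 32415 at 84.4 % and CpG 19 in 32802 at 80.05 % (interval 79.1 to 80.9). In 31092, 31153, 32415 and 32802 the interval of the lowest site lay below that of the second lowest. In 31150 the interval of CpG 17 (87.3 to 89.5) overlapped that of CpG 12 (88.0 to 90.1). In 30999 the intervals of CpG 12 (86.6 to 89.1) and CpG 19 (87.2 to 89.7) overlapped as well. The lowest site of 31150 and 30999 is therefore not resolved. CpG 19 had the largest spread in P, 91.3 % ± 6.10 (SD, n = 6), and CpG 9 the smallest, 94.8 % ± 1.10. Over the 20 CpGs, the profiles of 2 P animals correlated with r from -0.18 to 0.53 in 15 pairs, with a median of 0.37. These correlations describe 20 neighbouring sites read in the same molecules and carry no test.

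**Figure D2:**
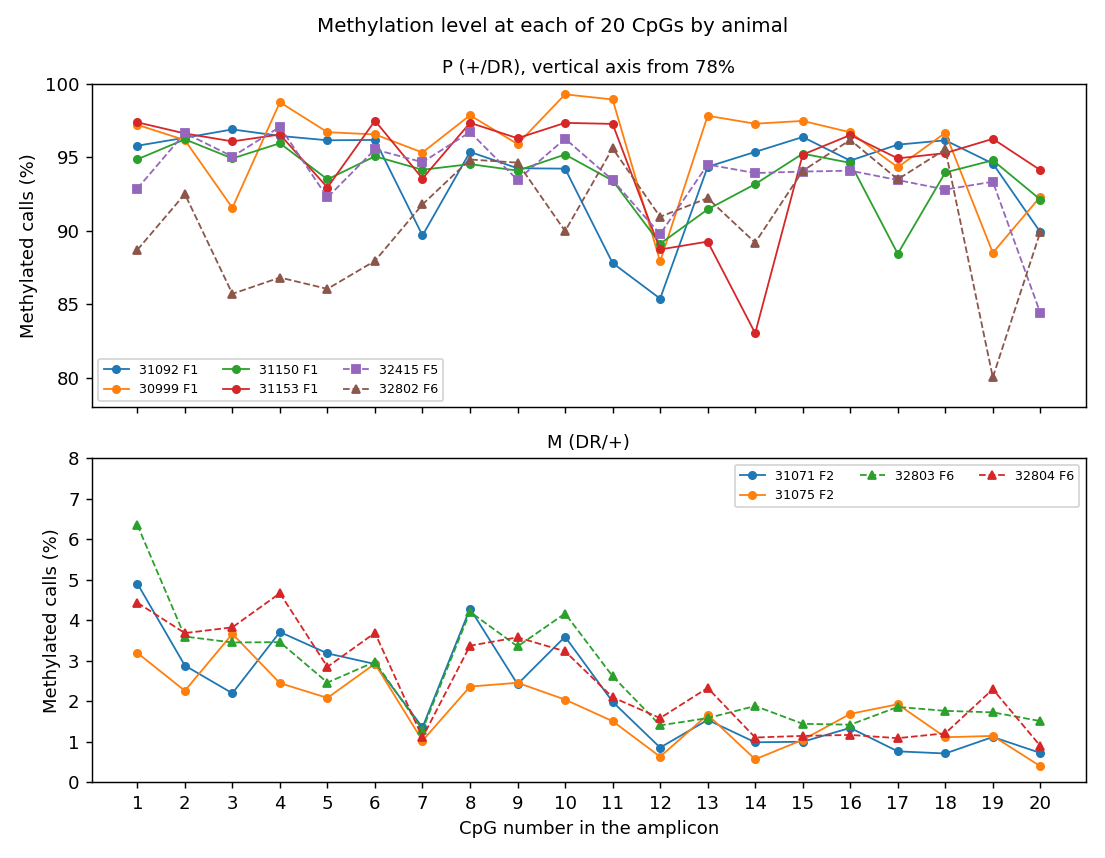
Methylated calls in percent (vertical axis) at CpGs 1 to 20 (horizontal axis) in P (upper panel, axis from 78 %) and M (lower panel, axis from 0 %), 1 line per animal, with dashed lines for F5 and F6. P animals dip at CpG 12 and at sites that differ between them, such as CpG 14 in 31153 and CpG 19 in 32802, while the 4 M animals follow one shape that falls after CpG 11.

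In M the profile was shared. CpG 1 (position 89774498) was the most methylated, at 4.91 % in 31071, 3.20 % in 31075, 6.36 % in 32803 and 4.44 % in 32804, with a mean of 4.72 % ± 1.31 (SD, n = 4). CpG 20 (position 89774665) was the least, at 0.724, 0.396, 1.51 and 0.897 % in the same order, with a mean of 0.882 % ± 0.468. The highest site of an M animal was CpG 1 in 31071 and 32803, CpG 3 in 31075 (3.67 %) and CpG 4 in 32804 (4.67 %). The 6 pairs of M animals correlated over the 20 CpGs with r from 0.74 to 0.91, with a median of 0.84.

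CpGs 1 to 11 lie close together, from amplicon base 62 to 115, and CpGs 12 to 20 are spread from base 137 to 229. In M the first 11 stood at 3.04 % ± 0.486 and the last 9 at 1.30 % ± 0.280 (SD, n = 4), higher in the first 11 in 4 of 4 animals. In P the same stretches stood at 94.6 % ± 2.23 and 92.8 % ± 1.07 (SD, n = 6), higher in the first 11 in 5 of 6 animals, with 32802 as the exception at 90.4 against 91.3 %. CpGs 18 and 19 lie inside PDS2847, a primer site that the study used for chromatin immunoprecipitation of CTCF, an insulator protein. CpG 18 stood at 95.1 % ± 1.44 in P and 1.20 % ± 0.434 in M, and CpG 19 at 91.3 % ± 6.10 and 1.57 % ± 0.560.

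Single reads were mostly in one state or the other. Each read was classed by the share of its CpGs that were methylated. Over 66 % was counted as the methylated state, under 33 % as the unmethylated one, and 33 to 66 % as between. The methylated state held 98.1 % of the reads in 31092, 97.3 % in 31150, 99.1 % in 31153, 99.96 % in 30999, 97.6 % in 32415 and 97.1 % in 32802. The unmethylated state held 99.9 % of the reads in 31071, 99.99 % in 31075, 99.3 % in 32803 and 99.6 % in 32804. The shares of P and M animals overlapped, with means of 98.2 % ± 1.11 and 99.7 % ± 0.331, a difference of -1.50 percentage points with exact permutation p = 0.0476. After adjustment over 9 measures compared between the lineages, p was 0.0612, and within run 1 the difference was -2.09 percentage points.

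Reads between the states were few. They made up 0.298 % ± 0.219 of the reads in P, from 0.00 % in 30999 to 0.576 % in 31153, and 0.0157 % ± 0.0248 in M, from 0.00 to 0.0521 %. The difference of 0.282 percentage points had exact permutation p = 0.0476 and adjusted p = 0.0612, and the animals overlapped. Within run 1 it was 0.163 percentage points. Among reads with a call at every CpG, 8 to 14 methylated CpGs were found in 2 to 20 reads of each P library, and in 0 of the 42324 such reads of M, which allows a share of up to 0.00709 % by counting error alone. This window was chosen after the values were seen, as the stretch without M reads, and the reads of the 4 animals were pooled for the limit.

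**Figure D3:**
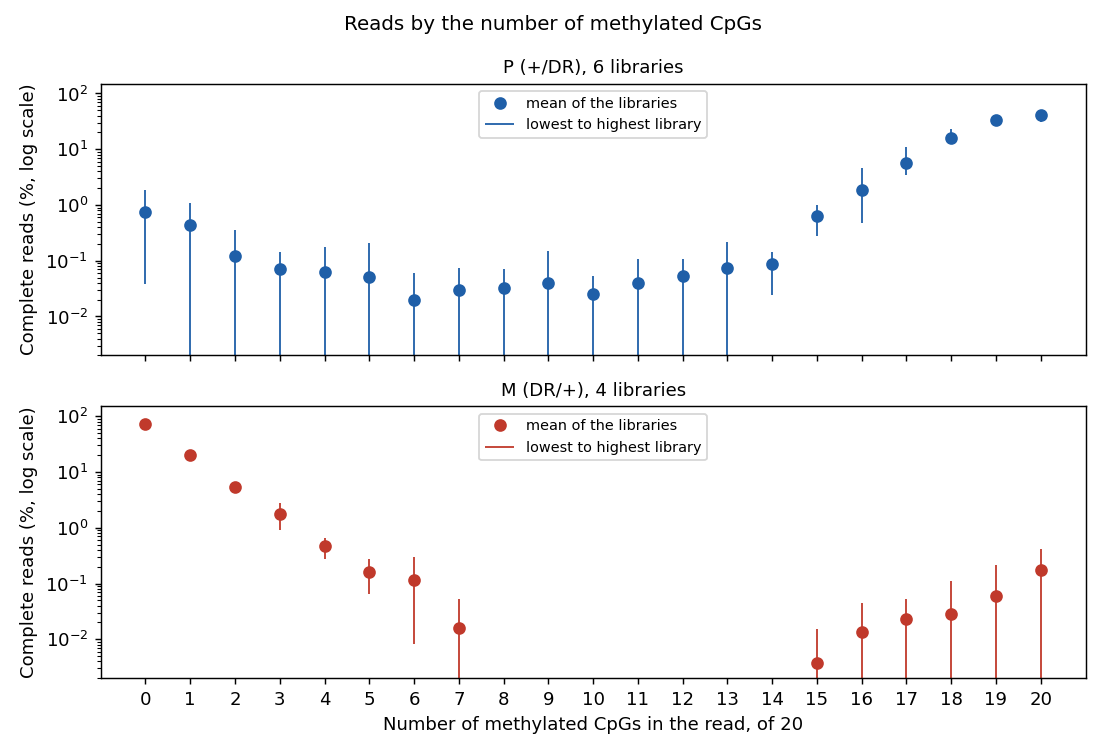
Reads with a call at every CpG, as a percentage on a log axis (vertical), by the number of their 20 CpGs that were methylated (horizontal), in P (upper panel) and M (lower panel). Points are means over libraries and lines run from the lowest to the highest library, down to the axis where a library has none. P reads pile up at 15 to 20 methylated CpGs with a small second group at 0, and M reads at 0 to 7 with a small second group at 15 to 20.

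Some reads were in the state of the other lineage. In P, reads under 33 % made up 1.75 % of reads in 31092, 2.16 % in 31150, 0.360 % in 31153, 0.0383 % in 30999, 2.08 % in 32415 and 2.69 % in 32802. In M, reads over 66 % made up 0.0789 % in 31071, 0.669 % in 32803 and 0.440 % in 32804. None of the 9361 reads of 31075 was of this kind, which allows up to 0.0320 %. Means were 1.51 % ± 1.07 in P and 0.297 % ± 0.314 in M, with exact permutation p = 0.105, and the animals overlapped. Within run 1 the difference was 1.92 percentage points. Tail DNA comes from many cells and a read does not name its cell, so a share of reads is not a share of cells.

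Unmethylated reads were of the kind printed above as carrying no methylated CpG in 1.11 % of the reads of 31092 and 1.86 % of those of 32802, but in 0.0720 % of those of 31153. Their mean share over P was 0.746 % ± 0.712 (SD, n = 6), against 71.8 % ± 1.61 (SD, n = 4) in M. Fully methylated reads made up 41.0 % ± 5.53 of reads in P and 0.172 % ± 0.192 in M.

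P lay farther from its extreme than M. Unmethylated calls in P made up 5.91 % of calls in 31092, 6.26 % in 31150, 5.39 % in 31153, 4.34 % in 30999, 6.29 % in 32415 and 9.19 % in 32802. Methylated calls in M made up 1.81 to 2.63 %. The departures averaged 6.23 % ± 1.62 and 2.26 % ± 0.366, and the difference of 3.97 percentage points had exact permutation p = 0.00952 (adjusted p = 0.0214), with no overlap. It was 5.29 percentage points within run 1. With the primer CpG counted as well, which the primer makes methylated in nearly every read, the difference was -0.971.

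Reads of the opposite state held 21.1 % ± 13.8 of the departing calls in P, from 0.884 % in 30999 to 31.9 % in 31150, and 11.3 % ± 11.4 in M (exact permutation p = 0.257, with a difference of 17.1 percentage points within run 1). Without these reads, the departure was 4.87 % ± 0.958 in P and 1.98 % ± 0.115 in M, and the animals still did not overlap (difference 2.89 percentage points, exact permutation p = 0.00952, adjusted p = 0.0214). Within run 1 the difference was 3.55 percentage points. Of the P animals, 5 then stood between 4.30 and 5.08 %, and 32802 stood at 6.73 %. The 4 M animals stood between 1.81 and 2.05 %.

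**Figure D4:**
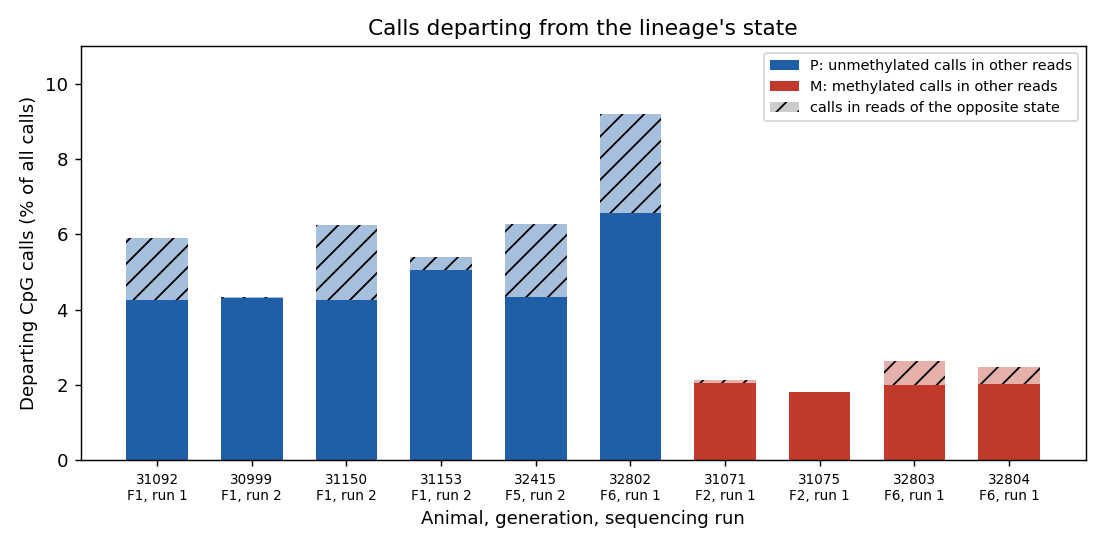
CpG calls that depart from the state of the lineage, as a percentage of all calls (vertical axis), in each animal with its generation and run (horizontal axis). Departing calls are unmethylated in P (blue) and methylated in M (red); the hatched top of a bar is the part that lies in reads of the opposite state, and it is 28.1 to 31.9 % of the bar in 4 of the 6 P animals.

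Cytosines outside CpGs measure conversion, here only in reads that had already passed the study's filter of at least 95 % conversion. Unconverted ones made up 0.490 % ± 0.0541 of such calls in P and 0.388 % ± 0.0291 in M, a difference of 0.102 percentage points with exact permutation p = 0.0190 and adjusted p = 0.0343. The ranges, 0.423 to 0.561 % and 0.355 to 0.426 %, overlapped slightly, and the difference within run 1 was 0.0944 percentage points. In each of the 4 M libraries the methylated share at CpGs outside the opposite state was above the unconverted share outside CpGs. An unconverted cytosine is read as methylated, so at a CpG it counts as a departure in M only. The part of incomplete conversion in the departures of M was not tested. Nor was the part of PCR and sequencing errors in those of either lineage.

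More reads departed in P, and a departing read held more departing CpGs. At least 1 departing CpG was found in 59.0 % ± 5.53 of the reads in P and 28.2 % ± 1.61 of those in M (difference 30.9 percentage points, exact permutation p = 0.00952, adjusted p = 0.0214), and the difference within run 1 was 33.9 percentage points. Exactly 1 such CpG was found in 57.8 % of the departing reads of 31092, 60.6 % of 31150, 56.9 % of 31153, 63.5 % of 30999, 61.6 % of 32415 and 39.4 % of 32802. The share was 66.04 to 76.3 % in M. The means, 56.6 % ± 8.81 and 71.1 % ± 4.60, differed by -14.4 percentage points without overlap (exact permutation p = 0.00952, adjusted p = 0.0214), and by -22.5 within run 1. This share depends on how often calls depart, so it is not a result separate from the departure. Reads of the opposite state were included in it.

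The 5 commonest read patterns of a lineage were the full state and 4 single departures. In P, the fully methylated pattern held 41.0 % ± 5.46 of the reads with every call, from 30.6 % in 32802 to 45.3 % in 31092. CpG 12 alone unmethylated came next, at 3.89 % ± 1.33, from 2.27 % in 32802 to 6.28 % in 30999. CpG 20 alone followed at 2.57 % ± 0.830, CpG 19 alone at 2.34 % ± 1.82 and CpG 1 alone at 2.26 % ± 1.49. The last of these was 4.16 % in 32415 and 4.14 % in 32802, and 0.907 to 1.73 % in the 4 F1 animals.

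In M, the pattern without methylation held 71.7 % ± 1.62. CpG 1 alone methylated came next at 2.29 % ± 0.653, followed by CpG 4 alone at 1.93 % ± 0.327, CpG 8 alone at 1.68 % ± 0.291 and CpG 10 alone at 1.63 % ± 0.468. All 4 single sites lie in the dense stretch of CpGs 1 to 11. In each of the 10 libraries the full pattern was commoner than the product of the 20 CpG levels. In 32802 it held 30.6 % of reads, against 14.3 % for that product, in 30999 43.4 against 40.7 %, and in 31075 73.8 against 69.4 %. Reads of the opposite state, of which 31075 had none, are counted in these levels and move most of the 20 together. Their part in the excess was not tested.

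Animal 32802 also had a pair of CpGs that departed together. CpG 6 (position 89774532) was unmethylated in 12.04 % of its reads and CpG 19 (position 89774651) in 19.95 %. Of the reads unmethylated at CpG 6, 62.6 % were unmethylated at CpG 19 as well, against 14.1 % of the reads methylated at CpG 6. Reads of the opposite state, 2.69 % of the reads of 32802, are included in these shares and raise the first of them. The read with just these 2 departures, printed here with the 2 sites as TG, made up 2.49 % of its reads (186 reads) and was the commonest pattern with 2 departures in that library. Every other P library had a commonest pair of its own, from 0.626 % of reads with every call in 31150 to 1.81 % in 31153. The pair of CpGs 6 and 19 was chosen after its values were seen. Copies of 1 molecule made by the PCR cannot be told apart from separate molecules in these reads.
CpGs 6 and 19 unmethylated: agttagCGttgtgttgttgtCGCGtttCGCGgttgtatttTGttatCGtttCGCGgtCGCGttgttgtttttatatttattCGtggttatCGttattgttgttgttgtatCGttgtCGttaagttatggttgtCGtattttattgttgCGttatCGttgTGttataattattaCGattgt

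Early and late generations were compared within each lineage, where so few animals cannot reach the threshold. In P the late animals stood at 93.71 % (32415, F5) and 90.8 % (32802, F6), and the lowest F1 animal at 93.74 %, so that both late animals lay below all 4 early ones, 32415 by a margin that other read filters removed. At 90 % identity 32415 stood at 93.98 %, and with every CpH converted at 95.06 %, above the lowest F1 animals at 93.74 and 93.5 %. Late minus early was -2.26 percentage points, with exact permutation p = 0.133, the smallest that 2 against 4 animals allow. Without 32802 the difference was -0.810, and without 32415 it was -3.71. Within run 1 the F6 animal differed from the F1 animal 31092 by -3.28 percentage points, and within run 2 the F5 animal differed from the mean of 3 F1 animals by -0.954. Without reads of the opposite state, late minus early was -1.07 percentage points (exact permutation p = 0.267), and the generations overlapped.

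In M the late animals had the higher values. F6 stood at 2.63 and 2.47 % and F2 at 2.12 and 1.81 %, a difference of 0.582 percentage points without overlap, with exact permutation p = 0.333, the smallest that 2 against 2 allow. Reads of the opposite state moved with it. They made up 0.669 and 0.440 % of the reads in F6, against 0.0789 and 0.00 % in F2. Without them, F6 stood at 2.04 and 2.01 % and F2 at 2.05 and 1.81 %, a difference of 0.0959 percentage points with overlap (exact permutation p = 1).

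The difference between generations was set between the lineages by permuting generations within each. The null of this test is no generation change in either lineage, so its p does not measure whether the 2 changes differ. Values are those of the level. Departure from the lineage's own extreme was higher in late animals of both lineages, by 2.26 percentage points in P and 0.582 in M. Late minus early in P differed from late minus early in M by -2.84 percentage points, with exact permutation p = 0.0111, the smallest of the 90 arrangements. It rested on the F6 animal of P: without 32802 the difference was -1.39 (exact permutation p = 0.167). Without reads of the opposite state it was -1.16 (p = 0.100 by the same exact test), and within run 1 it was -3.86 (exact permutation p = 0.167, the smallest that these animals allow).

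At most CpGs the difference between generations had the sign of the lineage's mean. Late was below early at 15 CpGs and above at 5 in P, with a median of -1.55 percentage points. The generations did not overlap at 3 CpGs that were lower in the late animals, 15 % of the 20 (CpGs 1, 5 and 15), and at 1 that was higher, 5 % (CpG 12). The largest differences in P were -6.84 percentage points at CpG 19, -5.66 at CpG 5 and -5.52 at CpG 1. At CpG 19 the late animals stood at 93.3 and 80.05 % and the F1 animals at 88.5 to 96.2 %, so the generations overlapped, and without 32802 the difference was -0.19. At CpG 1 they stood at 92.9 and 88.7 %, below all 4 F1 animals (94.9 to 97.4 %), and at CpG 5 at 92.3 and 86.1 %, below 92.9 to 96.7 %. With 1 late animal in place of 2, more CpGs separated the generations, 9 without 32802 and 10 without 32415.

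In M, late was above early at 19 CpGs and below at 1, with a median of 0.628 percentage points. The generations did not overlap at 10 CpGs that were higher in F6, 50 % of the 20, and at 0 that were lower (0 %). Labels alone separate the generations at a CpG with probability 0.133 in P (2 against 4 animals) and 0.333 in M (2 against 2). The numbers of such CpGs in P and M are therefore not comparable. The largest differences were 1.34 percentage points at CpG 1, 1.07 at CpG 2 and 1.03 at CpG 9. CpG 1 stood at 6.36 and 4.44 % in F6 and at 4.91 and 3.20 % in F2, which overlap, while CpG 9 stood at 3.36 and 3.58 % in F6, above 2.42 and 2.46 % in F2. The count was 18 without 31071 and 16 without 31075, which leave 1 early animal each. With limma on the log2 odds of methylation, 0 CpGs passed an adjusted p of 0.05 in either lineage. The smallest adjusted p was 0.361 in P and 0.102 in M, and 1 CpG in P and 4 in M had an unadjusted p under 0.05.

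**Figure D5:**
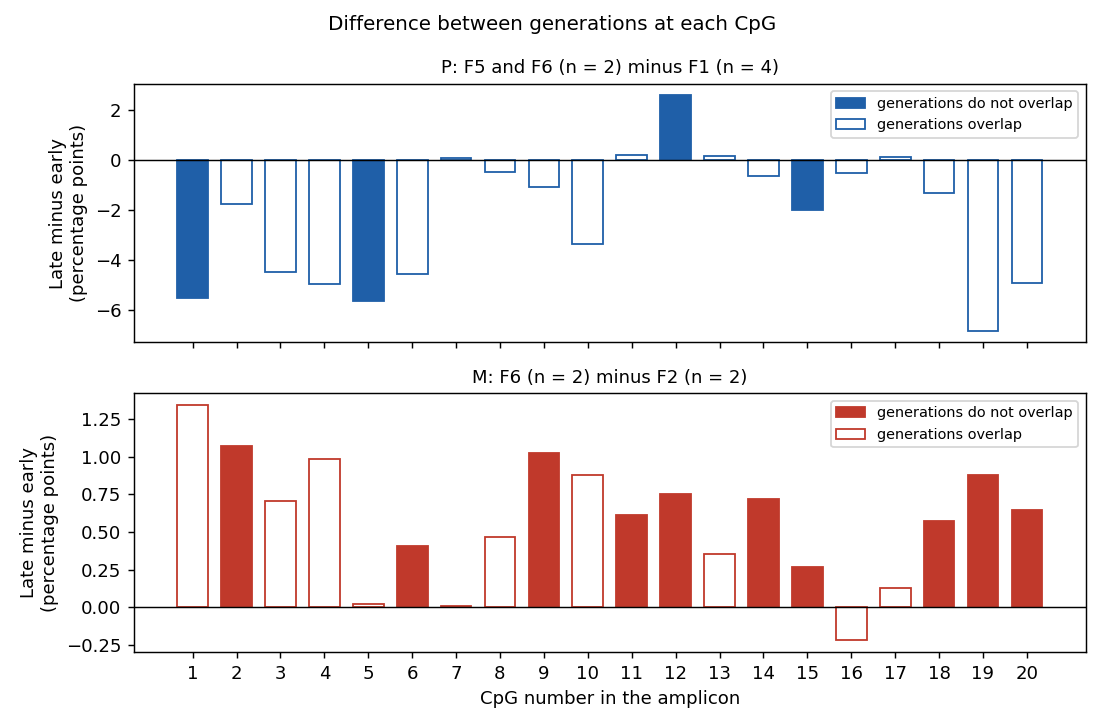
Late minus early generation in percentage points (vertical axis) at CpGs 1 to 20 (horizontal axis), for P (F5 and F6 minus F1, upper panel) and M (F6 minus F2, lower panel). Filled bars are CpGs at which the late and the early animals do not overlap, 4 in P and 10 in M; the 2 panels have different scales.

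The tails of the alternating lineage, in which the allele passed through both sexes in turn, were set beside those of P and M. All of these were sequenced in run 2. Reads with no methylation made up 0.746 % ± 0.712 in P (n = 6) and 2.66 % ± 2.41 in the 6 alternating tails of paternal transmission, which ranged from 0.00 to 6.24 % (exact permutation p = 0.0909, adjusted over 6 contrasts 0.182). Reads in the methylated state made up 98.2 % ± 1.11 in P and 94.3 % ± 5.24 there (exact permutation p = 0.0866, adjusted 0.182). Outside the opposite state, methylated calls made up 1.98 % ± 0.115 in M and 2.04 % ± 0.0733 in the 4 alternating tails of maternal transmission (exact permutation p = 0.486, adjusted 0.583). None of the 6 contrasts, which were chosen after seeing the data, passed the threshold.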

How the data were processed

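Tail DNA of 6 P and 4 M animals was measured by bisulfite PCR and MiSeq sequencing. The authors filtered and trimmed the reads, cut the data of run 2 to 10 MB per library, and aligned the reads with QUMA, installed locally (version not given in the sources used here). The deposited files list, read by read, a count of methylated CpGs, unconverted CpHs (cytosines outside CpGs), mismatches and gaps, and the authors' percent identity, percent methylation and percent conversion. A string holds the call at each CpG for reads that were not excluded. The files were made with an identity limit of 90 %, and the study states 98 % with at least 95 % conversion. Replicates were not pooled. Sequencing runs were taken from the supplement of the study.

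Reads at 98 % identity or more were counted here over 20 CpGs. The CpG in the primer was dropped. Each animal was 1 replicate, and its number is only a name. The p-values are two-sided exact permutation tests over animals, with a threshold of 0.05 and Benjamini-Hochberg adjustment over the CpGs or measures of a family. Generations were also compared by counts of CpGs without overlap and with limma 3.58.1 (R 4.3.3) on the log2 odds, with 0.5 added to each count. In a chi-square test over their commonest read patterns, all 21 pairs of replicates within a lineage differed (largest p = 1.69e-61), so none was counted as a library deposited more than once. The CpGs named are the most and the least methylated of each lineage, the 3 with the largest difference between generations in each, those with the largest and the smallest difference between lineages, and the 2 inside PDS2847. The 5 commonest read patterns of each lineage are named too. CpGs 3, 4, 6, 10, 14 and 17, and the extremes of single animals, were named after their values were seen. The members, measures and lists were chosen with earlier results of these data known. Alternatives changed the reads, CpGs, group summary or animals. The code was tested on simulated data. Sequences and positions come from the deposited reference, matched to NCBIM37. The other 16 libraries (sperm, oocytes and e9.5 tissues) were not used here, and the alternating tails were used only for the contrasts named. Figures were drawn with Matplotlib 3.10.9, and computations used SciPy 1.17.1 with NumPy 2.4.6 under Python 3.11.15.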

Additional observations from a re-analysis of the deposited data

Results flagged for a closer look

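In groups of 4 to 10 libraries, 44 values were checked for a library far from the rest, of which 6 stood apart. Chance alone would single out about 1 in 20 of them. Several of the values describe the same reads and move together, so the 6 are not separate results and show no excess over that rate. Animal 32802, the F6 animal of P, accounted for 5. It had the lowest share of fully methylated reads (30.4 %), and so the highest share of reads with a departing CpG (69.6 %), and the lowest share of those with exactly 1 departing CpG (39.4 %). Its level without reads of the opposite state was 93.3 %, and its level at CpG 2 was 92.5 %, where the other 5 P animals lay between 96.2 and 96.6 %. Its share of unconverted CpHs, 0.532 %, lay inside the range of P. In M, animal 31075 stood apart in its level without reads of the opposite state, at 1.81 % against 2.01 to 2.05 % in the other 3.

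The level changed downward from early to late generations in P and upward in M. Departure from the lineage's own extreme rose in both, by 2.26 percentage points in P and 0.582 in M. The changes in level differed by -2.84 percentage points (exact permutation p = 0.0111, under a null of no change in either lineage). Without 32802 the value was -1.39 (exact permutation p = 0.167).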

How the results depend on the processing

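The difference in level between P and M kept its sign in every alternative. It ranged from 50.4 percentage points, estimated over every listed read, to 92.1 with 1 animal left out. Within run 1, where 2 against 4 animals cannot pass the threshold, the level differed by 90.2, the departure by 5.29, the share of single departures by -22.5, reads in the lineage's state by -2.09, reads between the states by 0.163 and the generation change by -3.86, 0 CpGs passed between P and M, and all 20 CpGs of P differed between its 1 early and 1 late animal.

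The share of reads in the lineage's state lost its call with every CpH converted (-1.42), 21 CpGs (-1.31), 18 CpGs (-1.32), medians (-1.93) and without the F5 animal (-1.37), and kept it in 1 of 10 cases with 1 animal left out (-1.85 to -1.29, exact permutation p up to 0.119). Reads between the states did so with 21 CpGs (0.114), 18 CpGs (0.103), medians (0.269) and without the F5 animal (0.271), and also kept the call in 1 of 10 cases with 1 animal left out (0.227 to 0.342, exact permutation p up to 0.0952). The cause was not tested. The departure turned to -0.971 with 21 CpGs, since the primer CpG is methylated in either lineage.

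The generation change between lineages lost its call with every CpH converted (-2.23, exact permutation p = 0.200), with libraries of at least 3000 reads (-2.23, exact permutation p = 0.0556, the smallest that 2 against 2 animals in each lineage allow), without reads of the opposite state (-1.16), and in excluded reads from the opposite end of the amplicon (-0.117). With 1 animal left out it ranged from -4.29 to -1.39. In the opposite-end reads, which cover CpGs 12 to 20 only, late minus early in P turned to 0.657 (exact permutation p = 0.933). This sign rested on the F1 animal 30999, which stood at 87.5 % from 227 reads. The F1 animals 31092, 31150 and 31153 stood at 94.1, 93.5 and 92.5 %. The late animals 32415 and 32802 stood at 93.3 and 91.8 %. The alternatives without reads of the opposite state and with opposite-end reads were chosen after seeing the data, and the cause was not tested. CpGs without overlap numbered 4 to 10 in P and 10 to 18 in M with 1 animal left out, 10 in P without the F5 animal, and limma called 0 in each.

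No paired analysis was possible because the replicate numbers were given in accession order and the labels pair no P animal with an M animal. The number of molecules behind the reads is unknown, and 2 late animals in each lineage limit any statement on generations.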

Other observations

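Many of the reads that the software excluded in run 1, and fewer in run 2, came from the opposite end of the amplicon and aligned to bases 136 to 250 only. Taking those with at most 2 mismatches beside the gap, and with their listed number of methylated CpGs over the last 9 sites, the level was 92.1 % ± 2.39 (SD, n = 6) in P and 1.49 % ± 0.633 (SD, n = 4) in M, a difference of 90.6 percentage points (exact permutation p = 0.00952). The reads used in the report gave 92.8 % ± 1.07 and 1.30 % ± 0.280 at the same 9 CpGs. The excluded reads taken here made up 31.9 to 51.8 % of the listed reads in run 1 libraries. In the run 2 libraries of P they made up 0.587 to 12.3 %, so most excluded reads of run 2 are not described by these levels. In P the excluded reads stood at 87.5 % in 30999, with 227 reads, and at 91.8 to 94.1 % in the other 5 animals, with 3875 to 8819 reads each. In M, over 66 % of the 9 CpGs were methylated in 1.63 % of these reads in 32803, 0.396 % in 32804, 0.0780 % in 31071 and 0.00 % in 31075. The order of these M animals was that of the opposite-state shares in the reads used. In P, under 33 % were methylated in 1.87 % of these reads in 32802, 1.06 % in 31092 and 0.859 % in 32415. The share was 0.715 % in 31150, 0.441 % in 30999 and 0.206 % in 31153. At the same 9 CpGs of the reads used, 32802 was also first, at 2.70 %, and the order of the other P animals differed.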
